A study of Mus musculus with 15 samples.

Results

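The aryl hydrocarbon receptor genes described here are 6 of the 17752 genes that the deposited tables listed in the ileum of at least 1 of 15 mice. They were taken by symbol: Ahr, Arnt, Ahrr, Tiparp, Cyp1a1 and Cyp1b1. The samples were pieces of ileum from female C57BL/6 mice (C57BL/6JOlaHsd in the methods), 8 weeks of age by their labels, and 1 RNA library was made per mouse. All 3 groups of 5 mice were gavaged every 2nd day over 10 days: the controls with water, and the others with 200 mg/kg of grape proanthocyanidins (PAC), which are polymers of flavan-3-ol units. A group named low PAC in the labels received polymers of low molecular weight, and the methods describe these as having a low mean degree of polymerization (mDP). The group named high PAC and labelled as high molecular weight is the one the methods call medium mDP, and it is called medium mDP PAC below. No genetic change was made in any group, and all mice were fed a purified diet according to the methods. Each library was a whole-tissue extract that mixes epithelium, immune cells, stroma and muscle, so fewer cells of a type and less RNA per cell cannot be told apart in any value below.

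The aryl hydrocarbon receptor (AHR) is a transcription factor of the bHLH-PAS family that is activated by binding small molecules, among them dioxins, many plant polyphenols, and indoles that gut bacteria make from tryptophan. Without a ligand it is held in the cytoplasm by HSP90 and p23 (Ptges3). With a ligand it moves to the nucleus, pairs with ARNT and binds DNA that holds the core letters GCGTG. Its targets include the detoxifying cytochrome P450 enzymes and 2 genes that switch the response off: Ahrr, a repressor that competes for ARNT, and Tiparp, a mono-ADP-ribosyltransferase that marks the receptor for loss. In the intestine AHR is needed to keep several kinds of lymphocyte, and Cyp1a1 is the enzyme most used there as a readout of an active receptor. C57BL/6 mice carry a form of the receptor with high affinity for ligand.

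The DNA just before the start of the target genes is shown because these letters are where the receptor would bind if a site lay near the start. By the GENCODE annotation of GRCm38, Ahr lies at chr12:35497974-35535038, Arnt at chr3:95434388-95497240, Ahrr at chr13:74211118-74292331, Tiparp at chr3:65528410-65555518, Cyp1a1 at chr9:57687928-57703824 and Cyp1b1 at chr17:79701537-79715061, and all are protein-coding. RefSeq (GRCm38.p6) start windows were found for 5 of the 6 genes, Arnt, Ahrr, Tiparp, Cyp1a1 and Cyp1b1. The letters GCGTG were searched on both strands, so a copy on the opposite strand reads CACGC. Each window is the 250 bases before the RefSeq start, 5′ to 3′ on the strand of the gene, with every copy of the core in capitals. RefSeq and GENCODE starts can differ: the Cyp1a1 window lies inside the GENCODE range of the gene, and the Tiparp window runs past its GENCODE start. The windows lie at chr13:74292332-74292581 (minus strand) for Ahrr, chr9:57697363-57697612 (plus strand) for Cyp1a1, chr17:79715062-79715311 (minus strand) for Cyp1b1 and chr3:65528197-65528446 (plus strand) for Tiparp.
Ahrr: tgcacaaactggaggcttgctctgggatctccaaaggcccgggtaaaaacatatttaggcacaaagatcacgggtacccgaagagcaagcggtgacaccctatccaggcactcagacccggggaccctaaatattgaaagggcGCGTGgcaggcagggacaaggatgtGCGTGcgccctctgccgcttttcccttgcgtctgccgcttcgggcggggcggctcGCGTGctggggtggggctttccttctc
Cyp1a1: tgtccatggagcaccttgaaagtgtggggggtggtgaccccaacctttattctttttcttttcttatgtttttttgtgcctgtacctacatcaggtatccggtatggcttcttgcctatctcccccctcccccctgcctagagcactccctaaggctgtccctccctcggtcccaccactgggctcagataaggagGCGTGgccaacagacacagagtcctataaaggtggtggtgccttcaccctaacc
Cyp1b1: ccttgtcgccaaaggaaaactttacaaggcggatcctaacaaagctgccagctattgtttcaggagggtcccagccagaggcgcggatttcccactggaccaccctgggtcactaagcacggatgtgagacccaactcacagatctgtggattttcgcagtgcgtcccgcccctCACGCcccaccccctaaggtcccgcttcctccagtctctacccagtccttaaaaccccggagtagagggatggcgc
Tiparp: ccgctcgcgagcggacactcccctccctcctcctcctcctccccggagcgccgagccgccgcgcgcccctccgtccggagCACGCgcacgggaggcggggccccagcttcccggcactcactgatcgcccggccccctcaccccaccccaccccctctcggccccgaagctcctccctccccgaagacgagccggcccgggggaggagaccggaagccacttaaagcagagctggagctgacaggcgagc

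The Ahrr window held 3 copies of the core, and the windows of Arnt, Tiparp, Cyp1a1 and Cyp1b1 held 1 copy each. Of 32851 RefSeq windows of the same length, 28.2% held at least 1 copy and 2.77% held 3 or more. The longer form TNGCGTG was found once, in the Ahrr window, and 4.1% of all windows held it. A match is a description of letters and was not tested as a binding site. The well-known response elements of Cyp1a1 lie farther upstream than the bases shown.

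The 6 genes stood at very different levels, and their order was the same in every group. Levels are in FPKM, a count of sequenced fragments scaled to transcript length and library total, which allows genes of different length to be compared. Arnt was the highest with 14.51 to 19.04 FPKM in the 15 mice (mean 17.6), followed by Tiparp with 9.14 to 13.55 (mean 10.9) and Ahr with 4.09 to 5.37 (mean 4.76). Cyp1b1 ranged from 1.1 to 3.6 FPKM (mean 2.33), Ahrr from 0.31 to 0.7 (mean 0.481) and Cyp1a1 from 0 to 0.11 (mean 0.0287). No range touched that of its neighbour in this order. By mean FPKM, Arnt ranked above 76.6% of all listed genes and Tiparp above 66.5%, Ahr lay in the middle, and Cyp1a1 ranked above 8.83%. Arnt exceeded its partner Ahr by a mean factor of 3.73 (range 2.7 to 4.5), and Ahr exceeded its repressor Ahrr by a mean factor of 10.3 (6.84 to 14.3).

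**Figure D1:**
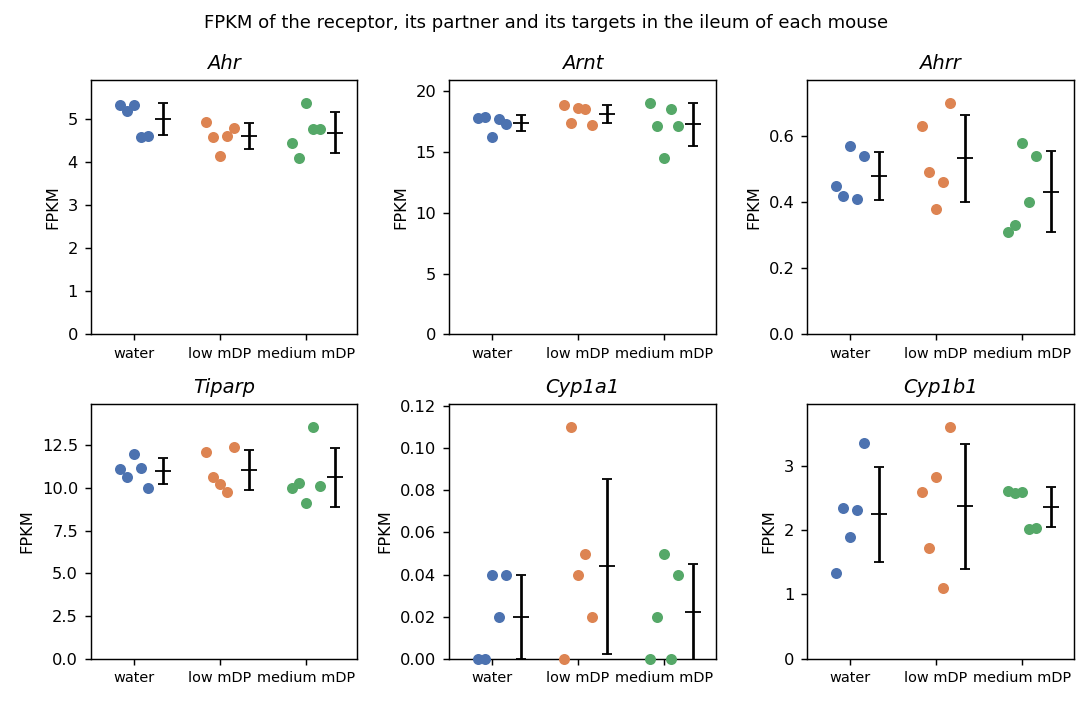
FPKM (y axis, from 0) of the 6 genes in each mouse, by group on the x axis, with replicates 1 to 5 from left to right in each group and the group mean ± SD in black. The y scales differ between genes: Arnt lies between 14.51 and 19.04, whereas Cyp1a1 lies between 0 and 0.11, and the 3 groups overlap for every gene.

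Cyp1a1, the cytochrome P450 that AHR ligands induce most strongly, was almost silent in all 3 groups. Its expected counts in the water mice were 0, 0, 2, 1 and 2, in the low mDP PAC mice 0, 5, 2, 2 and 1, and in the medium mDP PAC mice 0, 1, 2, 0 and 2. These are 20 counts over 15 libraries of 15963086 to 17903886 counts each, and 5 mice had none. Pooled by group, 5 counts (95% exact Poisson interval 1.62 to 11.7) were found with water, 10 (4.8 to 18.4) with low mDP PAC and 5 (1.62 to 11.7) with medium mDP PAC. The ratio to water was 2.0 (0.624 to 7.48) for low mDP PAC and 0.993 (0.229 to 4.32) for medium mDP PAC, intervals that cover counting error only. One low mDP PAC mouse held 5 of the 10 counts of its group. Differences of Cyp1a1 within these intervals were not detectable at this depth, and the gene lay below the count filter of the genome-wide test. Cyp1a2, its neighbour on chromosome 9 and a liver enzyme of the same family, was listed in none of the 15 mice.

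Cyp1b1, a P450 of the same family that is found mainly in stromal and immune cells, was the member that varied most between mice apart from Cyp1a1. FPKM was 1.33, 2.35, 1.9, 2.31 and 3.35 in the water mice, 2.59, 1.73, 2.82, 1.1 and 3.6 with low mDP PAC, and 2.61, 2.57, 2.6, 2.02 and 2.03 with medium mDP PAC. The medium mDP PAC values lay inside the range of the water mice, and the lowest and the highest mouse of the series were both in the low mDP PAC group. The coefficient of variation between mice of a group was 31.2%, against 6.99% from counting error. Group means were 2.25 ± 0.74 (SD, n = 5), 2.37 ± 0.973 and 2.37 ± 0.312 FPKM.

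Ahrr, the repressor, gave 0.45, 0.42, 0.57, 0.41 and 0.54 FPKM with water, 0.63, 0.49, 0.38, 0.46 and 0.7 with low mDP PAC, and 0.31, 0.33, 0.58, 0.4 and 0.54 with medium mDP PAC. The 3 lowest of the 5 medium mDP PAC mice were below every water mouse and the highest was above them all. Counts per mouse were 25 to 56, so counting error alone gave a coefficient of variation of 16.1% of the 23.4% seen. Tiparp, the ADP-ribosyltransferase, gave 11.13, 10.62, 12.01, 11.16 and 9.97 FPKM with water, 12.11, 10.66, 10.24, 9.77 and 12.42 with low mDP PAC, and 9.97, 10.27, 9.14, 13.55 and 10.13 with medium mDP PAC. Both the lowest and the highest mouse were in the medium mDP PAC group, and one mouse there stood above the rest.

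The receptor itself was the most even of the members after Arnt. Ahr was 5.31, 5.19, 5.32, 4.57 and 4.61 FPKM with water, 4.93, 4.57, 4.14, 4.6 and 4.79 with low mDP PAC, and 4.43, 4.09, 5.37, 4.76 and 4.76 with medium mDP PAC. Of the 5 water mice, 3 lay above all low mDP PAC mice, and the other 2 lay within their range. Arnt was 17.81, 17.9, 16.23, 17.69 and 17.33 FPKM with water, 18.86, 17.4, 18.62, 18.57 and 17.21 with low mDP PAC, and 19.04, 17.14, 14.51, 18.52 and 17.11 with medium mDP PAC. The coefficients of variation between mice were 8.22% for Ahr and 6.66% for Arnt.

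Medium mDP PAC against water was tested with edgeR's quasi-likelihood test on the counts of 14386 genes, in which 5 of the 6 members were included and Cyp1a1 was not. None of the 5 passed an adjusted p of 0.05, a threshold that 0.0139% of all genes tested passed (2 genes). Ahr was lower by 0.19 on the log2 scale (log2 fold change -0.19, SE 0.08, 95% interval -0.37 to -0.02, unadjusted p = 0.035, adjusted p = 0.304). An unadjusted p under 0.05 was reached by 14.8% of all genes in this comparison (2128 genes), so 1 of 5 members is close to that background. The unadjusted p of Ahr was over 0.05 in 11 of 24 other settings with a p (0.0584 to 0.284), and no member was then under 0.05. These were upper quartile normalization, library totals alone, no filter, limma, only those groups, the replicate block, and the fits without replicate 1, 2 or 3 of water or replicate 1 or 2 of medium mDP PAC. Leaving out a low mDP PAC mouse, which is outside this contrast, left Ahr at -0.19 (unadjusted p 0.0327 to 0.0417 by edgeR). Such fits are among the 24 and barely change the estimate. Log2 fold changes were -0.25 for Ahrr (-0.70 to 0.20), -0.14 for Tiparp (-0.37 to 0.09), -0.11 for Arnt (-0.26 to 0.04) and -0.01 for Cyp1b1 (-0.56 to 0.53). The median over the 5 was -0.14, beside 0.00 over all genes tested. Without replicate 3 of medium mDP PAC, a library that stands apart in its FPKM total, Arnt was at -0.01, Tiparp at -0.06 and the median of the 5 at -0.06. In that fit 10.9% of all genes had an unadjusted p under 0.05. Without replicate 4, the mouse with the highest Tiparp, Tiparp moved the other way to -0.26 (unadjusted p = 0.0103, adjusted p = 0.189 by edgeR). Ahrr lay between -0.35 and -0.16 with a mouse left out, at the upper end without replicate 1 of medium mDP PAC, and it was -0.17 without replicate 3 of water. As folds, the intervals of Ahr, Arnt and Tiparp ran from 0.771 to 1.06 between their outermost bounds, and those of Ahrr and Cyp1b1 reached down to 0.614 and up to 1.45.

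Low mDP PAC against water gave no called gene among all tested (0%), and 3.61% of genes had an unadjusted p under 0.05 (520 genes), none of them a member. By the quasi-likelihood test Ahr had a log2 fold change of -0.18 (-0.36 to 0.00, unadjusted p = 0.0506, adjusted p = 0.976). Its unadjusted p was under 0.05 in 4 of 24 other settings, those without replicate 4 or 5 of water or replicate 2 or 3 of medium mDP PAC, and the lowest was 0.0193. The values of the other 4 were 0.07 for Ahrr (-0.37 to 0.52), -0.05 for Tiparp (-0.28 to 0.18), 0.03 for Cyp1b1 (-0.52 to 0.57) and 0.00 for Arnt (-0.15 to 0.15). Both comparisons use the same 5 water mice. Between the PAC groups, medium against low mDP, no gene was called (0%) and 3.89% had an unadjusted p under 0.05 (559 genes), again without a member. Ahrr had the farthest estimate in that comparison, -0.33 (-0.77 to 0.12), and the others lay between -0.11 and -0.02. The 2 PAC fractions differ in polymer length and were given at the same dose, and no difference between them passed for these genes. Their intervals reach folds as low as 0.585 (Ahrr) and as high as 1.42 (Cyp1b1), so differences of that size cannot be told from none.

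**Figure D2:**
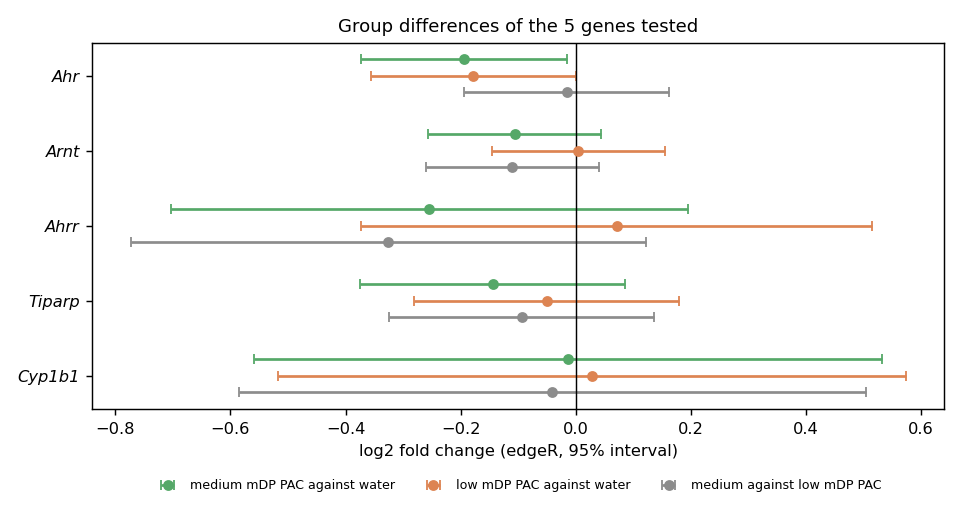
Log2 fold change (x axis) with its 95% interval from edgeR for the 5 tested genes (y axis) in the 3 comparisons of 5 mice each. All intervals include 0 except that of Ahr for medium mDP PAC against water, which runs from -0.37 to -0.02, and the adjusted p of Ahr is 0.304 while its unadjusted p was over 0.05 in 11 of 24 other settings.

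The same 6 genes were compared one at a time by exact two-sided permutation tests of mean log2(FPKM + 0.1), in which 5 against 5 mice cannot give a p below 0.0079. Of 18 tests, 0 had p under 0.05, and the smallest was 0.0952 for Ahr with low mDP PAC against water. On this scale the difference of Ahr was -0.12 for low and -0.10 for medium mDP PAC (exact p = 0.31), which is less than the edgeR value for medium mDP PAC. The scales part because FPKM is scaled to the library total, while the normalization factors that edgeR applied to the totals were 0.935 to 1.01 in the water mice and 1.01 to 1.06 in the medium mDP PAC mice. With library totals alone the edgeR estimate of Ahr was -0.10, and the median of all genes was then 0.10 instead of 0.00. Arnt was at -0.01, Tiparp at -0.05 and Ahrr at -0.16 with library totals alone, and at -0.04, -0.08 and -0.19 with upper quartile normalization, where the median of all genes was 0.07.

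Between mice of the same group, Ahr and its repressor Ahrr ranked alike. With group means subtracted, Pearson's r over the 15 mice was 0.70 (permutation p = 0.0088, adjusted over 15 pairs 0.066) and Spearman's rho 0.78 (p = 0.00193, adjusted 0.0145). Without the 2 mice farthest from the median Ahr level r was 0.57, and on TMM-normalized log2 CPM (counts scaled to the normalized library total) r was 0.64 and rho 0.62 (adjusted permutation p = 0.113 and 0.086). With 1 mouse left out at a time rho stayed between 0.63 and 0.86, but its adjusted p was under 0.05 in 7 of 15 cases and reached 0.198. It was lost without replicates 1 and 3 of water, 1, 2, 3 and 5 of low mDP PAC, and 2 and 3 of medium mDP PAC. Arnt went the other way from Ahrr (r -0.65, adjusted p = 0.0978, rho -0.56, adjusted p = 0.34), a relation that did not pass. For Cyp1b1 and Tiparp, r with Ahr was -0.23 and 0.19 (adjusted p = 0.754 each). Arnt and Cyp1a1 also passed by rho (-0.80, adjusted p = 0.0145, r -0.62, adjusted p = 0.066), but Cyp1a1 holds 0 to 5 counts a mouse and no relation is read from them.

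**Figure D3:**
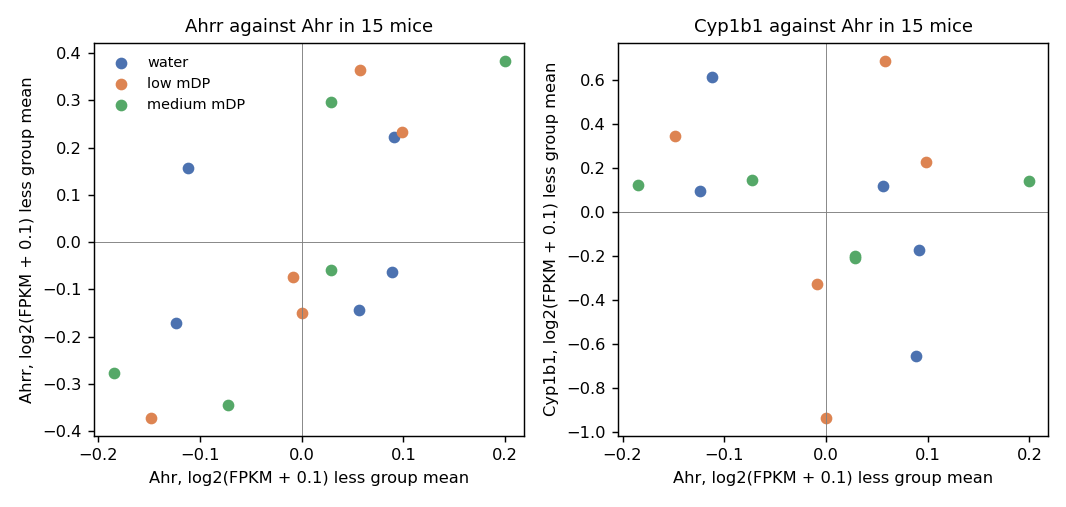
Ahrr (left) and Cyp1b1 (right) against Ahr in the 15 mice, each as log2(FPKM + 0.1) less the mean of its group, coloured by group. The left panel rises from lower left to upper right (r 0.70), and the right panel shows no such order (r -0.23).

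Markers of cell types and of position were set beside the members, since a piece of ileum can hold more or less muscle, lymphoid tissue or villus. The markers of ileal epithelium were present in every mouse, with Fabp6, the ileal bile acid binding protein, at 4196 to 10620 FPKM and Vil1, a structural protein of the brush border, at 500.01 to 968.14 FPKM. Of 96 relations between the 6 members and 16 marker lists, 0 passed an adjusted p of 0.05 by r or by rho. Those with an unadjusted permutation p under 0.05 by r included Cyp1b1 with the distal ileum list (r -0.60, permutation p = 0.00334, adjusted 0.321), Ahr with mesothelium (r -0.66, adjusted permutation p = 0.37) and Ahrr with the circadian output genes (r -0.72, adjusted permutation p = 0.37). They also included the smooth muscle list, with r 0.59 for Cyp1b1 (adjusted permutation p = 0.37) and -0.59 for Ahr (adjusted permutation p = 0.406). The others were Ahr with the circadian output genes (r -0.60, adjusted permutation p = 0.623) and Cyp1b1 with mesothelium (r 0.55, adjusted permutation p = 0.406). Ahr and Ahrr thus both ran against the circadian list. The part of tissue make-up or time of day in the members' values was not tested.

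No marker gene was called in any comparison by edgeR, and the lists for position and for the main tissue layers are given beside the members. The paper, which used NOISeq, reports Gata4 of the proximal small intestine list among the genes lowered by medium mDP PAC. Of 8 enterocyte markers, 6 had estimates below 0 and an unadjusted p under 0.05 for medium mDP PAC against water, beside 14.8% of all genes in either direction. The median log2 fold change of the 8 was -0.44, with none called after adjustment. The summed enterocyte level was 13000 to 17000 FPKM in the water mice and 8960 to 14300 in the medium mDP PAC mice. The value of 8960 was that of replicate 3, and the other 4 mice lay between 12400 and 14300. Without replicate 3 of medium mDP PAC, 4 of the 8 markers had an unadjusted p under 0.05, beside 10.9% of all genes in that fit, and the median was -0.29. All 7 smooth muscle markers had estimates above 0 (median 0.42, summed level 315 to 1010 FPKM in water and 759 to 1210 in medium mDP PAC mice), and none of them passed. Estimates were also above 0 for all 6 mesothelium markers (median 0.93), all 5 adipocyte markers (0.64) and all 5 red blood cell markers (0.63), with none called and 1 red blood cell marker at an unadjusted p under 0.05. Without replicate 3 of medium mDP PAC these medians were 1.21, 0.75 and 0.28. Low mDP PAC against water gave estimates above 0 for all 7 smooth muscle (median 0.31), all 6 mesothelium (0.63) and all 5 adipocyte markers (0.58), and below 0 for all 8 enterocyte markers (-0.29). There, 4 of 5 red blood cell markers were below 0 (median -0.07), as were all 8 B cell follicle markers (-1.26). Of the markers of position, 4 of 6 for the proximal small intestine were below 0 with medium mDP PAC against water (median -0.36, lowest -2.48, 1 at an unadjusted p under 0.05) and 4 of 6 for the distal ileum (median -0.03). The fit without replicate 3 of medium mDP PAC put 4 of 6 distal markers above 0 (median 0.04) and left the proximal median at -0.34. Low mDP PAC against water gave 5 of 6 proximal markers below 0 (median -0.35) and all 6 distal markers above 0 (median 0.10). All 7 macrophage markers were below 0 with medium mDP PAC against water (median -0.12, 1 at an unadjusted p under 0.05) and all 5 crypt markers above 0 (median 0.19). Leaving out replicate 3 of medium mDP PAC gave macrophage markers a median of -0.19, with 2 of 7 at an unadjusted p under 0.05. Crypt markers then had 4 of 5 above 0 (median 0.23, 1 at an unadjusted p under 0.05), beside 10.9% of all genes in that fit. The part of these lists in the values of Ahr and its partners was not tested. A B cell follicle signal was present in 7 mice (62.4 to 209 FPKM summed over 8 markers) and near absent in 8 (4.06 to 6.95). The ranges of all 6 members overlapped between these sets, with Ahr at 4.14 to 5.37 FPKM in the first and 4.09 to 5.19 in the second.

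The genes most like each member across mice were named by Pearson's r of log2 CPM less the group mean, over 15 mice and 14386 genes. For Ahr these were Fabp6 (0.92), Ppp2ca (0.88), Pex2 (0.86), Tfpi2 (0.86) and Zfp706 (0.86), and the most opposed were Snx32 (-0.88), Pcdhga2 (-0.87) and Syt11 (-0.86). For Ahrr they were Vps8 (0.89), Tasp1 (0.88), Fgf7 (0.80), Glmn (0.78) and Calcrl (0.77), with Eppk1 (-0.91), Usp2 (-0.88) and Gpr17 (-0.86) at the other end. Tiparp was most like Atf2 (0.90), Slc31a1 (0.89), BC016579 (0.89), Gosr1 (0.89) and Stam2 (0.88), and most unlike Wwox (-0.88), Abhd14a (-0.88) and Fam149a (-0.86). The highest of so many coefficients are large by selection and carry no test.

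The proteins that hold AHR in the cytoplasm or help it switch on genes were measured as a list of 15, and 5 of them had estimates below 0 for medium mDP PAC against water at an unadjusted p under 0.05 (33.3%, beside 14.8% of all genes), with none called. All 5 are coactivators: Crebbp and Ep300, which acetylate histones, and the nuclear receptor coactivators Ncoa1, Ncoa2 and Ncoa3. Ep300 was 22.06 to 24.4 FPKM in the water mice, 21.23 to 23.26 with low mDP PAC and 14.98 to 21.43 in the medium mDP PAC mice, which did not overlap the water mice. Of all genes tested, 4.64% did not overlap between these groups, and Ep300 was named for its unadjusted p. The log2 fold change of Ep300 was -0.36 (SE 0.09, unadjusted p = 0.000607, adjusted p = 0.162 by edgeR), and DESeq2 gave an adjusted p of 0.0191. Crebbp had -0.43 (SE 0.13, adjusted p = 0.205), and the 3 Ncoa genes lay between -0.23 and -0.21. Replicate 3 of the medium mDP PAC group, whose FPKM summed to 677075 against 502110 to 573980 in the other 14 mice, gave the lowest Ep300 and Crebbp values, and without it the estimates were -0.25 and -0.27, those of Ncoa1, Ncoa2 and Ncoa3 were -0.14, -0.11 and -0.15, and 3 of the 15 genes had an unadjusted p under 0.05, beside 10.9% of all genes in that fit. With upper quartile normalization the count was also 3, beside 16.1% of all genes (5.67% with estimates below 0). The chaperones were abundant, with Hsp90ab1 at a median of 438.98 and Hsp90aa1 at 142.69 FPKM, and neither passed (Hsp90ab1 -0.07, -0.39 to 0.26). With low mDP PAC against water 0 of the 15 had an unadjusted p under 0.05, beside 3.61% of all genes.

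Among 16 further genes with PAS domains, most of them bHLH-PAS relatives of Ahr and Arnt, 15 were listed and 12 tested. Some of them serve the response to oxygen and the clock. Per1, Per2 and Per3 of this list hold PAS domains but no bHLH domain. Their log2 fold changes with medium mDP PAC against water were -0.389, -0.335 and -0.120, and the list median below includes them. Arnt2, a close relative of Arnt known mainly from neurons, had a log2 fold change of -0.53 with medium mDP PAC (SE 0.18, adjusted p = 0.24 by edgeR) at 0.856 ± 0.189 FPKM against 1.16 ± 0.267 with water. Hif1a, which encodes an oxygen-regulated transcription factor that shares ARNT with AHR, had -0.21 with medium and -0.18 with low mDP PAC (adjusted p = 0.266 and 0.976 by edgeR). Epas1, the most abundant of the list at a median of 22.78 FPKM, had -0.09 (-0.34 to 0.16). The list as a whole had a median of -0.16 and 2 of 12 genes with an unadjusted p under 0.05 (16.7%, close to the 14.8% of all genes). Without replicate 3 of medium mDP PAC the median was -0.05 and the count 1, beside 10.9% of all genes.

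The other known AHR targets did not follow one direction. Of 19 listed by name, 18 were measured, 14 could be tested, and with medium mDP PAC 7 had estimates above and 7 below 0 (median 0.02). The 2 with an unadjusted p under 0.05 (14.3%, beside 14.8% of all genes) were Xdh, xanthine dehydrogenase, at -0.54 (SE 0.20, adjusted p = 0.268 by edgeR), and Nfe2l2, which encodes NRF2, the regulator of antioxidant genes, at -0.22 (SE 0.10, adjusted p = 0.305). Without replicate 3 of medium mDP PAC Xdh was at -0.33, and with each mouse left out in turn 0 to 3 genes of the list had an unadjusted p under 0.05, beside 10.5% to 17.0% of all genes. Nqo1, a quinone reductase switched on by both AHR and NRF2, was 7.33 to 9.43 FPKM with water, 8.56 to 11.54 with low and 9.09 to 11.96 with medium mDP PAC, with a log2 fold change of 0.17 for medium mDP PAC (unadjusted p = 0.13). Cyp2s1, a P450 of the epithelium, was 34.6 to 40.73 FPKM in the water mice and 35.07 to 41.22 in those given medium mDP PAC. Ugt1a6a and Ugt1a6b, which conjugate glucuronic acid to xenobiotics, share most of their sequence, so reads may have been split between them and their estimates of 0.40 and 0.74 (unadjusted p = 0.29 and 0.161) are uncertain. Aldh3a1, an aldehyde dehydrogenase that AHR ligands induce, reached at most 0.31 FPKM in any mouse. With low mDP PAC against water 0 of 14 had an unadjusted p under 0.05, beside 3.61% of all genes.

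**Figure D4:**
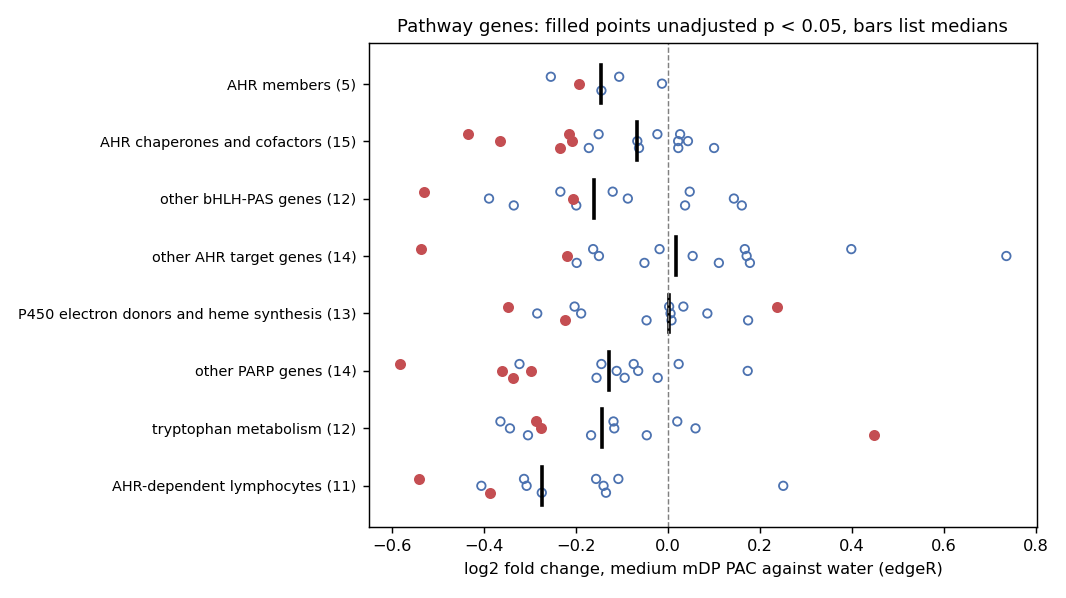
Log2 fold change of medium mDP PAC against water (x axis, edgeR) for every tested gene of the 8 lists on the y axis, with the number tested in brackets, filled points for an unadjusted p under 0.05 and a bar at the list median. The medians run from -0.27 for the AHR-dependent lymphocyte genes to 0.02 for the other AHR targets, beside 0.00 over all genes, and no point passes after adjustment.

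Cytochrome P450 enzymes need electrons and heme, and the genes that supply these gave 3 of 13 with an unadjusted p under 0.05 in medium mDP PAC against water (23.1%, beside 14.8% of all genes) and a median of 0.00. Alas1, the first and rate-limiting enzyme of heme synthesis, had a log2 fold change of -0.22, Cyb5r3, cytochrome b5 reductase, had -0.35, and Urod, a later enzyme of heme synthesis, had 0.24. Their adjusted p by edgeR were 0.266, 0.331 and 0.291, and without replicate 3 of medium mDP PAC none of these 3 had an unadjusted p under 0.05, while 1 other gene of the 13 had, Cyb5a (10.9% of all genes in that fit). Por, the reductase that feeds the P450 enzymes, was 49.8 ± 4.26 FPKM with water (n = 5) and 46.6 ± 7.55 with medium mDP PAC. Cyb5a, cytochrome b5, was 155.49 to 233.46 FPKM over the 15 mice and had a log2 fold change of -0.22 with low mDP PAC against water (adjusted p = 0.976 by edgeR).

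The relatives of Tiparp, the other PARP genes, numbered 14 and were all tested. With medium mDP PAC 4 had an unadjusted p under 0.05, all with estimates below 0 (28.6%, beside 14.8% of all genes in either direction), and the median of the 14 was -0.13. Without replicate 3 of medium mDP PAC, 2 of the 14 (Parp14 and Tnks) had an unadjusted p under 0.05, close to the 10.9% of all genes in that fit. The 4 genes were Parp14 (-0.58, SE 0.17, adjusted p = 0.193 by edgeR and 0.0468 by DESeq2), Parp12 (-0.34), Parp9 (-0.30) and Tnks (-0.36), and Parp12 and Tnks were at -0.20 each without that mouse. The first 3 are known as interferon-responsive genes, and Tnks, tankyrase, acts in telomere and WNT control. Parp14 was 19.49 to 29.74 FPKM with water, 14.37 to 22.86 with low and 12.43 to 20.13 with medium mDP PAC, so the groups overlapped. With low mDP PAC against water all 14 estimates were below 0, from -0.33 to -0.01, beside 7842 of all 14386 genes. Of the 14, 0 had an unadjusted p under 0.05, beside 3.61% of all genes.

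Tryptophan can be turned into AHR ligands by the host as well as by bacteria, and 12 of 17 genes of its metabolism could be tested. For medium mDP PAC against water 9 were below 0 (median -0.14) and 3 of the 12 had an unadjusted p under 0.05 (beside 14.8% of all genes), or 4 without replicate 3 of medium mDP PAC (beside 10.9%). In the fit without that mouse 10 were below 0 and the median was -0.23. For low mDP PAC against water 11 were below 0 (median -0.21), beside 7842 of all 14386 genes, and 2 had an unadjusted p under 0.05 (16.7%, beside 3.61%). Ido1, which opens the kynurenine pathway in the gut, was 9.72 to 14.87 FPKM in the water mice and 7.87 to 15.65 in those given medium mDP PAC (-0.17, unadjusted p = 0.332). Kyat3, a kynurenine aminotransferase, was 2.27 to 3.38 FPKM with water, 2.45 to 3.76 with low and 3.57 to 4.61 with medium mDP PAC. Every medium mDP PAC mouse was above every water mouse (4.64% of all genes did not overlap), and the log2 fold change was 0.45 (SE 0.13, unadjusted p = 0.00263, adjusted p = 0.193 by edgeR). Tph1, which starts serotonin synthesis in enterochromaffin cells, had -0.29 with medium and -0.36 with low mDP PAC, and Maoa, which breaks serotonin down, had -0.27 and -0.23. No gene of the list was called in any comparison by edgeR.

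Of 16 genes that mark lymphocytes known to depend on AHR, 11 could be tested, 10 had estimates below 0 with medium mDP PAC, beside 7125 of all 14386 genes (49.5%), and 2 had an unadjusted p under 0.05 (18.2%, beside 14.8% of all genes). With each mouse left out in turn this count was 1 to 4, beside 10.5% to 17.0% of all genes. With low mDP PAC against water 9 of the 11 were below 0 (median -0.25, beside -0.27 with medium mDP PAC), as were 7842 of all 14386 genes. Of the 11, 0 had an unadjusted p under 0.05, beside 3.61% of all genes, and the median of medium against low mDP PAC was 0.03. Itgae, the CD103 integrin of intraepithelial T cells, was 4.26 to 6.22 FPKM in the water mice, 3.57 to 5.2 in the low and 2.58 to 4.13 in the medium mDP PAC mice. The medium against water estimate was -0.54 on the log2 scale (SE 0.15, unadjusted p = 0.00196, adjusted p = 0.185 by edgeR), and the water and medium mDP PAC mice did not overlap, beside 4.64% of all genes. Gzma, a granzyme of intraepithelial lymphocytes and the most abundant of the list, was 34.4 ± 10.3 FPKM with water and 33.5 ± 14.2 with medium mDP PAC. Il22, the cytokine of type 3 innate lymphoid cells, was listed in 6 of the 15 mice and reached 0.06 FPKM with water, 0.11 with low and 0.39 with medium mDP PAC, with a median of 0 in each group. T cell markers had a median log2 fold change of -0.19 with medium mDP PAC against water, or -0.37 without replicate 3 of medium mDP PAC. With low mDP PAC against water all 5 T cell markers were below 0 (median -0.34), as were all 8 B cell follicle markers (-1.26). The part of these markers in the lymphocyte genes was not tested.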

How the data were processed

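Ileum RNA of 15 mice (5 per group) was sequenced as paired ends on a BGISEQ-500. Per the labels and methods, reads were filtered with SOAPnuke and aligned to mm10 (the methods name Bowtie2, the submitters' processing notes HISAT and DESeq2); strand-specific counting was not given in the sources used here. The authors deposited 1 table per mouse with expected counts (estimated counts, not all of them whole) and FPKM per gene. Totals were 15963086 to 17903886 counts. The series gives 1 library per mouse.

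Expected counts were rounded and fitted for all 3 groups with edgeR 4.0.16 (R 4.3.3; TMM, filterByExpr, quasi-likelihood, Benjamini-Hochberg over 14386 genes). FPKM was used as log2(FPKM + 0.1) in exact permutation tests and, less group means, in correlations with 100000 permutations; such fold changes understate low genes. Named genes were the members, listed genes with an unadjusted p under 0.05 or the highest FPKM of a list, the top markers, and the 5 most and 3 least alike genes. Hsp90aa1, Nqo1, Cyp2s1, Ugt1a6a, Ugt1a6b, Aldh3a1, Por, Ido1, Il22 and Vil1 were added after their values were seen. Some listed genes are not reported here. Alternatives used DESeq2 1.42.0, limma 3.58.1, NOISeq, other normalizations and each mouse left out. What is called NOISeq here was a calculation on FPKM written after the published method, with a small value in place of 0. The package that the paper used was not run, so counts of called genes can differ from those of the paper. Scripts were tested on simulated data. The members and lists were chosen with earlier results of these data known.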

Additional observations from a re-analysis of the deposited data

Results flagged for a closer look

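One value stood far from its group. Tiparp was 13.55 FPKM in replicate 4 of the medium mDP PAC group, and the nearest of the other 4 mice was at 10.27, so this gap took 0.744 of the whole range of the group. It was the only one of 18 groups of 5 mice (6 genes in 3 groups) in which the highest or lowest mouse stood that far out, and chance alone flags about 1 in 20 groups.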

How the results depend on the processing

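No member was called in any of the 3 comparisons under any alternative run (other normalizations, no filter, DESeq2, limma on log2(FPKM + 0.1), NOISeq, a robust fit, only the groups compared, a replicate block, and each mouse left out), and the smallest adjusted p of a member was 0.189 (NOISeq gives none, and DESeq2 gave none to Ahrr and Cyp1b1 for medium mDP PAC against water). Direction held in 335 of 375 alternative estimates, which include fits without a mouse of the group outside the comparison. The 40 that turned sign had main estimates within 0.07 of 0, and the cause was not tested. For medium mDP PAC against water Cyp1b1 was 0.044 with upper quartile normalization, 0.0031 with DESeq2 size factors, 0.074 with library totals alone, 0.012 without a filter, 0.0023 with DESeq2, 0.12 with limma and 0.074 with NOISeq, and -0.14 to 0.15 with a mouse left out. For low mDP PAC against water Tiparp was 0.0092 with library totals alone, 0.0044 with limma and 0.0081 with NOISeq. Leaving out a mouse gave -0.014 to 0.027 for Arnt, -0.039 to 0.17 for Ahrr and -0.17 to 0.21 for Cyp1b1. For medium against low mDP PAC Ahr was 0.017 with upper quartile normalization, 0.024 with library totals alone and with NOISeq, 0.020 with limma and -0.052 to 0.022 with a mouse left out, and Cyp1b1 was 0.093 with limma and -0.22 to 0.15 with a mouse left out.

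Called genes for medium mDP PAC against water numbered 2, and 5 with library totals alone, 155 with DESeq2, 9 with limma, 4 with only those groups, 25 with NOISeq and 2 to 11 with a mouse left out (4 without replicate 2 of the water group, 11 without replicate 2 of the medium mDP PAC group). DESeq2 adjusted 6731 genes there, and of the pathway genes it called Ep300 and Parp14 (unadjusted p = 0.00083). It gave no adjusted p to some others, among them Itgae and Kyat3, whose unadjusted p were lower (0.000491 and 0.000777). Low mDP PAC against water gave 2 with DESeq2, 20 with NOISeq and 0 to 1 with a mouse left out (1 without replicate 2 of the low mDP PAC group), and the PAC groups differed in 14 genes by NOISeq. Of the genes with an unadjusted p under 0.05 for medium mDP PAC against water, 628 were higher and 1500 lower, and 1505 and 816 with upper quartile normalization. Member pairs past the threshold by rho numbered 2, and 1 with a pseudocount of 1, 0 on TMM-normalized log2 CPM and 0 to 2 with a mouse left out. By r they numbered 0, and 0 to 2 with a mouse left out (2 without replicate 5 of the water group, 1 without replicate 5 of the low mDP PAC group).

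Replicate numbers are shared between groups, and whether they pair the mice was not tested. Deviations of same-numbered mice correlated above 0.1 in 3, 2 and 0 of 5 pairs (medium against water, low against water, medium against low mDP PAC). Their mean r was 0.149, 0.123 and -0.123, beside -0.0377, -0.0307 and 0.0316 for mice of other numbers. With the replicate block Cyp1b1 was 0.015 for medium mDP PAC and -0.012 for low mDP PAC, each against water, and 0.027 between the PAC groups, and the counts of called genes did not change. Depth limits Cyp1a1, at 20 counts in all, and Ahrr, at 25 to 56 counts a mouse.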

Other observations

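Cyp1b1 and Arnt were outside the rule for naming genes that vary alike, and their nearest genes were looked up after their values were seen. By Pearson's r of log2 CPM less the group mean over 15 mice, Cyp1b1 was most like Akap2 (0.93), Nsg2 (0.93), Rgs1 (0.92), Prkacb (0.92) and Tm6sf1 (0.91), and most unlike Leng1 (-0.94), Stk16 (-0.91) and Tmc4 (-0.91). Arnt was most like Ocrl (0.93), Arhgap35 (0.90), Ubp1 (0.90), Mfap1b (0.89) and Prpf8 (0.88), and most unlike Elp3 (-0.92), Tfam (-0.90) and Supt4a (-0.90). These are the extremes of 14386 coefficients and carry no test.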
